A study of Mus musculus with 24 samples.

Results

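The miR-148/152 family comprises mmu-miR-148a-3p, mmu-miR-148b-3p and mmu-miR-152-3p, written below without the species prefix, and its signals were followed from the central to the portal side of mouse liver lobules. The 3 members were taken by name from the 1881 mouse miRNAs on the array. Hepatocytes came from 3 untreated male C57BL/6J mice aged 3 months, fed ad libitum and kept in a reverse light-dark cycle. They were sorted into 8 populations of 50000 cells by 2 surface proteins with opposite gradients, E-cadherin (periportal) and CD73 (pericentral). Zone 1 is the most pericentral population and zone 8 the most periportal, and zones 5 to 8 and zones 1 to 4 are called the periportal and pericentral zones here. All groups held viable tetraploid cells without CD45 or CD31, so hepatocytes of other ploidy are not represented. Each of the 24 arrays held 1 zone of 1 mouse.

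MicroRNAs guide Argonaute proteins to messenger RNAs that pair with the seed, and so lower the output of those messengers. miR-148a-3p is one of the more abundant miRNAs of hepatocytes and is known for repressing Abca1, which exports cholesterol. The family is also known for targeting DNA methyltransferases, and miR-152-3p and miR-148b-3p share predicted targets with miR-148a-3p through the common seed. Periportal hepatocytes are known for gluconeogenesis and urea synthesis, and pericentral hepatocytes for glutamine synthesis, bile acid synthesis and xenobiotic metabolism.

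The mature sequences are shown because they define the family and show how little separates its members. They come from RefSeq on GRCm38.p6, in which all 3 members were matched by miRNA name. They are written 5′ to 3′ with the seed (bases 2 to 8) in capitals.
miR-148a-3p: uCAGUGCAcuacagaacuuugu
miR-148b-3p: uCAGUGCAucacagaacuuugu
miR-152-3p: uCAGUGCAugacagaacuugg
The seed is identical in all 3, and no other mature mouse miRNA of the 1679 in that table carries it. Counted from the 5′ end, miR-148a-3p and miR-148b-3p were the same at 20 of 22 positions and differed by C9U and U10C. miR-148a-3p and miR-152-3p were the same at 18 of 21 positions and differed by C9U, U10G and U20G. miR-148b-3p and miR-152-3p were the same at 19 of 21 positions and differed by C10G and U20G. The signal files give no probe sequences, so how far each probe tells its member from the others was not tested.

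The hairpins are shown for the place of the arms, with the measured 3p arm in capitals.
Mir148a: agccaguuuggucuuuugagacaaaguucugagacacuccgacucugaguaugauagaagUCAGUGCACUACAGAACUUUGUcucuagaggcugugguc
Mir148b: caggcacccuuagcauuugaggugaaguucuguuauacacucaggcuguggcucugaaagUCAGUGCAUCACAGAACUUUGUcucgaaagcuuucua
Mir152: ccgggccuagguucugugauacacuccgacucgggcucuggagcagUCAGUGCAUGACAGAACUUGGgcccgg
On GRCm38.p6 the miR-148a-3p sequence lies at chr6:51269829-51269850 on the minus strand. miR-148b-3p lies at chr15:103285185-103285206 on the plus strand, within the span of Copz1. miR-152-3p lies at chr11:96850439-96850459 on the plus strand, within the span of Copz2. Copz1 and Copz2 are paralogs that encode zeta subunits of the coatomer, the coat of vesicles moving between the Golgi apparatus and the endoplasmic reticulum. The span of the predicted gene Gm38821 holds the miR-148a hairpin. Outside the spanning genes, the nearest protein-coding genes on either side are Npvf and Nfe2l3 for Mir148a, Nfe2 and Gpr84 for Mir148b, and Nfe2l1 and Cdk5rap3 for Mir152. In each pair 1 gene, not always the nearer, belongs to the Nfe2 family of transcription factor genes. Exon and intron positions were not used here.

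Summed over miRNAs, an array's signal ranged from 57935 to 138301 intensity units, and 248 to 368 miRNAs were called detected. Signals were therefore scaled between arrays before levels were compared, and the number of mice, 3, limits the precision. Each mouse had a slide of its own, so mouse and slide cannot be told apart. On every slide zones 5 to 8 lay in the second row and zones 1 to 4 in the first, so this grouping of zones and slide row cannot be told apart either. The 8 arrays of mouse 2 had lower median correlations with all other arrays (0.904 to 0.924) than the 16 of mice 1 and 3 (0.938 to 0.953), and results without that mouse are given where they change a call. The 3 hepatocyte miRNAs listed as markers, miR-122-5p, miR-192-5p and miR-194-5p, were detected on all 24 arrays. Of 7 stellate cell and fibroblast, 6 leukocyte and Kupffer cell and 3 erythroid miRNAs 0 were detected on any array. Of 6 biliary and other epithelial miRNAs 1 was detected, on 1 array, and of 3 endothelial miRNAs 1 was, miR-126a-3p, on 9 of 12 periportal and 7 of 12 pericentral arrays. The summed unscaled signal of the endothelial list was 0.3 to 9.73 intensity units on periportal arrays and 0.3 to 11.1 on pericentral arrays. The epithelial list summed to 0.6 to 2.89 units on periportal arrays and to 0.6 on every pericentral array, the sum of 6 undetected values.

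miR-148a-3p and miR-152-3p were detected on all 24 arrays and miR-148b-3p on 23, with mouse 2 zone 1 as the array that missed it. The other arms of the same precursors, miR-148a-5p, miR-148b-5p and miR-152-5p, were detected on 0 of 24 arrays, so the 3p arm was the only arm of each hairpin with a detected signal. Per the files, the measurement error had a median of 7.25% of signal for miR-148a-3p, 19.4% for miR-148b-3p and 8.96% for miR-152-3p. Before scaling, miR-148a-3p ran from 107 to 476 intensity units and miR-152-3p from 9.14 to 26.7. miR-148b-3p ran from 2.12 to 5.98 intensity units on the arrays that detected it. Signal per molecule differs between probes, so these signals do not rank the members by amount.

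miR-148a-3p was higher in the periportal zones. In mouse 1 its scaled signal in zones 1 to 8 was 293, 274, 238, 256, 317, 337, 351 and 338 intensity units. In mouse 2 it was 145, 256, 283, 173, 313, 349, 359 and 372 units over the same zones. In mouse 3 it was 269.6, 280.0, 296, 272, 282, 312, 377 and 375 units. Zones 1 and 4 of mouse 2 were the lowest arrays, and 11 of the 12 arrays of zones 5 to 8 were above every array of zones 1 to 4. Zone 5 of mouse 3 was the array that overlapped. Among the 198 miRNAs detected on all arrays, 3.54% were higher in the periportal zones without any overlap and 0.00% were lower. miR-148a-3p, with its overlapping array, is not among that 3.54%. No share over all miRNAs was counted for partial overlap, here or for the other members. The lowest, median and highest scaled signals were 282, 343 and 377 in zones 5 to 8, against 145, 271 and 296 in zones 1 to 4.

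**Figure D1:**
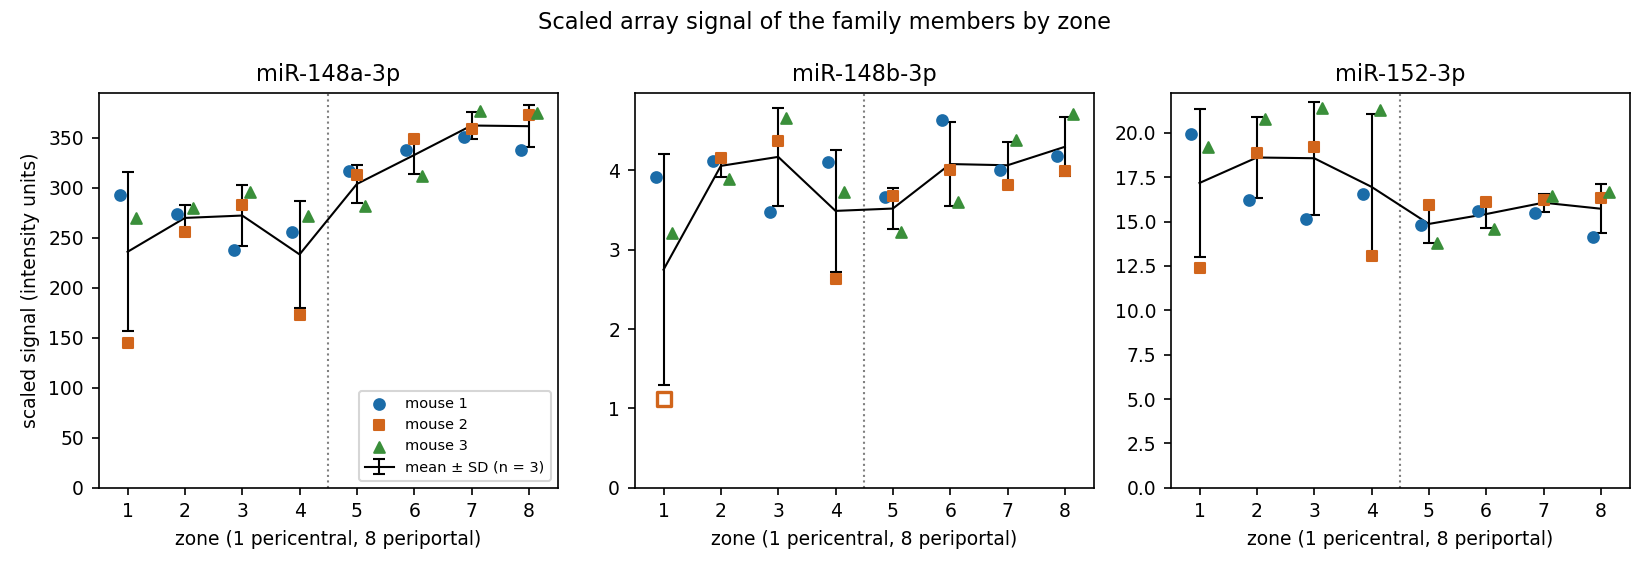
Scaled signal of miR-148a-3p, miR-148b-3p and miR-152-3p (intensity units, linear axis from 0) by zone, with 1 point per array coloured by mouse, zone means joined by a line and bars of ± 1 SD (n = 3); the open square is the undetected miR-148b-3p value, set to the floor, and the dotted line separates the slide rows. miR-148a-3p sits between 282 and 377 in zones 5 to 8 and between 145 and 296 in zones 1 to 4, while miR-152-3p sits between 13.8 and 16.7 in zones 5 to 8 and between 12.4 and 21.4 in zones 1 to 4.

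The periportal minus pericentral difference was 0.45 ± 0.10 log2 units for miR-148a-3p (SE), a 1.37-fold higher signal in zones 5 to 8 with a 95% interval of 1.18 to 1.59 (limma adjusted p = 0.00227). By mouse this difference was 0.34, 0.75 and 0.26 log2 units in mice 1, 2 and 3. The limma fits without a block treat the 24 arrays as independent. Their SE, intervals and p therefore do not measure the spread between the 3 mice. In that comparison 11.5% of the 339 miRNAs tested were called higher and 7.67% lower, and the median of all was -0.08. With mouse as a block the shares were 14.2% and 16.8%. Over the whole axis miR-148a-3p rose, by 0.68 ± 0.16 log2 units along the fitted line from zone 1 to zone 8 (SE; limma adjusted p = 0.00358). The slope test called 10.3% of miRNAs higher and 6.49% lower towards zone 8 (14.5% and 16.5% with the mouse block), and the median fitted change was -0.10. The fitted change was above 0 in each mouse, at 0.42 in mouse 1, 1.14 in mouse 2 and 0.48 in mouse 3. Mouse 2 thus had the steepest profile, and both of its low arrays lay in the pericentral zones. With quantile normalization the fitted change was 0.38 and did not pass (limma adjusted p = 0.130), nor did the periportal minus pericentral difference of 0.22 (adjusted p = 0.233). With slide row as a term beside the mouse block the slope was 0.05 per zone (adjusted p = 0.709).

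The zone 8 mean of miR-148a-3p was 362 ± 20.8 units, against 236 ± 79.5 in zone 1 (SD, n = 3 each), a log2 difference of 0.68 ± 0.21 (SE). This did not pass without the mouse block (limma adjusted p = 0.0693) and passed with it (adjusted p = 0.0448). By mouse the difference was 0.20, 1.36 and 0.48 in mice 1, 2 and 3, and without mouse 2, with the scaling read again from the arrays kept, it was 0.43 (limma adjusted p = 0.159). The direct comparison called 4.72% of miRNAs higher and 0.590% lower in zone 8, and with the block 7.67% and 2.06%. In the test for any difference between zones, which called 5.31% of miRNAs, miR-148a-3p had limma adjusted p = 0.220.

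Ordered by mean scaled signal, the zones of miR-148a-3p ran 4, 1, 2, 3, 5, 6, 8 and 7. The highest mean, of zone 7, was 362 ± 13.2 units and the lowest, of zone 4, 233 ± 53.3 (SD, n = 3 each). The gaps between zones 3 and 5, zones 5 and 6, and zones 6 and 8 in that order were larger than the SD of either zone. Zones 4, 1, 2 and 3 were not separated by more than their spread, and neither were zones 8 and 7. Within zones 1 to 4 the fitted slope of miR-148a-3p was 0.0072 ± 0.066 log2 units per zone, and within zones 5 to 8 it was 0.088 ± 0.066 (SE). Neither slope passed (limma adjusted p of 1.00 and 0.978). These tests called 0 of 339 miRNAs in zones 1 to 4, against 8 higher and 6 lower at an unadjusted p under 0.05, and 4 (1.18%) higher in zones 5 to 8.

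The slope of miR-152-3p did not pass the test, and its fitted value was below 0. Its scaled signal in zones 1 to 8 was 19.95, 16.2, 15.1, 16.5, 14.8, 15.6, 15.5 and 14.1 units in mouse 1. In mouse 2 it was 12.4, 18.9, 19.2, 13.1, 16.0, 16.1, 16.2 and 16.3 units. In mouse 3 it was 19.2, 20.8, 21.4, 21.3, 13.8, 14.6, 16.5 and 16.7 units. The groups of zones overlapped: 7 of the 12 arrays of zones 1 to 4 were above every array of zones 5 to 8 and 2, zones 1 and 4 of mouse 2, were below all of them. The same 2 arrays were the lowest for miR-148a-3p. The lowest, median and highest signals were 13.8, 15.8 and 16.7 in zones 5 to 8, against 12.4, 19.0 and 21.4 in zones 1 to 4.

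The periportal minus pericentral difference of miR-152-3p was -0.18 ± 0.09 log2 units (SE; limma adjusted p = 0.180), with a 95% interval of -0.36 to 0.0030. With mouse as a block the interval was -0.35 to -0.0075, and the difference still did not pass (limma adjusted p = 0.104). The values that follow are again from fits without a block. Its fitted change over the axis was -0.22 ± 0.14 log2 units (adjusted p = 0.331), with an interval of -0.51 to 0.07. By mouse the fitted change was -0.32, 0.10 and -0.45 in mice 1, 2 and 3, so the mice did not share a direction. Without the array of mouse 2 zone 1, which held the lowest value, both passed towards lower periportal signals (-0.23 between the groups of zones, limma adjusted p = 0.0401; fitted change -0.35, adjusted p = 0.0497). Without mouse 2 the periportal minus pericentral difference was -0.25 (adjusted p = 0.00816). Without scaling between arrays the slope was 0.0013 per zone and with the row term 0.0121. In order of mean the zones ran 5, 6, 8, 7, 4, 1, 3 and 2, the highest mean, of zone 2, being 18.6 ± 2.31 units and the lowest, of zone 5, 14.9 ± 1.07 (SD, n = 3 each), and no neighbours in that order differed by more than their spread. Zone 8 and zone 1 averaged 15.7 ± 1.38 and 17.2 ± 4.18 units, with a log2 difference of -0.10 ± 0.20 (SE; limma adjusted p = 0.878).

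miR-148b-3p, the dimmest member, lay near the limit of detection. In mouse 1 its scaled signal in zones 1 to 8 was 3.92, 4.12, 3.48, 4.11, 3.66, 4.64, 4.00 and 4.18 units. In mouse 2 it was undetected in zone 1 and 4.16, 4.37, 2.64, 3.67, 4.00, 3.81 and 4.00 units in zones 2 to 8. In mouse 3 it was 3.21, 3.90, 4.67, 3.73, 3.22, 3.60, 4.38 and 4.71 units. The groups of zones overlapped, with 1 of the 12 arrays of zones 5 to 8 above all arrays of zones 1 to 4. Entering the undetected value at the floor of 1.12 units, the fitted change was 0.48 ± 0.24 log2 units (SE; limma adjusted p = 0.187) and the periportal minus pericentral difference 0.21 ± 0.16 (adjusted p = 0.436). Without that array they were 0.13 (adjusted p = 0.616) and 0.06 (adjusted p = 0.740), so most of the fitted size rested on 1 array. With a floor 4 times lower they were 0.87 (limma adjusted p = 0.229) and 0.38 (adjusted p = 0.484). The difference of 0.21 had a 95% interval of -0.13 to 0.55 log2 units, which includes the size of the change of miR-148a-3p. In order of mean the zones ran 1, 4, 5, 2, 7, 6, 3 and 8, with 4.30 ± 0.373 units in zone 8 and 2.75 ± 1.45 in zone 1, the floor value included (SD, n = 3 each). That difference of 0.83 ± 0.31 log2 units (SE) did not pass (limma adjusted p = 0.154). Zones 5 and 2 were the neighbours in that order whose means differed by more than either SD.

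Because the signals share an array, the change of one member relative to another does not depend on a scaling factor. Quantile normalization, which is not a single factor per array, can alter it. The signal ratio of miR-148a-3p to miR-152-3p separated the periportal from the pericentral zones on all arrays. In mouse 1 the ratio in zones 1 to 8 was 14.7, 16.9, 15.7, 15.5, 21.4, 21.7, 22.6 and 23.9. In mouse 2 it was 11.7, 13.6, 14.8, 13.2, 19.6, 21.7, 22.2 and 22.8. In mouse 3 it was 14.05, 13.5, 13.9, 12.8, 20.4, 21.4, 22.9 and 22.5. All 12 arrays of zones 5 to 8 lay above all 12 of zones 1 to 4, the arrays of mouse 2 zones 1 and 4 included. The lowest, median and highest ratios were 19.6, 21.9 and 23.9 in zones 5 to 8, against 11.7, 13.9 and 16.9 in zones 1 to 4. The ratio is one of probe signals and not of molecules, and its change shows that the members changed unequally, not which of them changed.

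**Figure D2:**
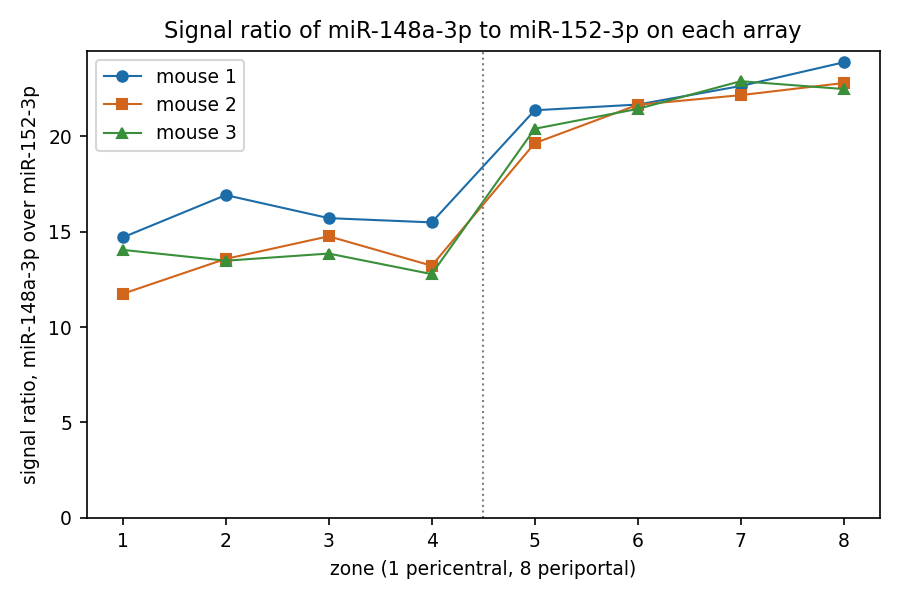
Signal ratio of miR-148a-3p to miR-152-3p on each array (vertical axis, linear, from 0) by zone, with 1 line per mouse; the dotted line separates zones 1 to 4 in the first slide row from zones 5 to 8 in the second. The ratio lies between 19.6 and 23.9 in zones 5 to 8 and between 11.7 and 16.9 in zones 1 to 4 in the 3 mice.

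The slope of the log2 ratio was 0.129 per zone, a difference in fitted change of 0.90 log2 units between miR-148a-3p and miR-152-3p. A two-sided permutation test of zone labels within mice gave p = 1e-05, the smallest that 100000 resamples can give. This test and the exact test below moved labels across the slide rows, so neither p separates zone from slide row. Neither p measures the spread between the 3 mice. The difference in fitted change was 0.74, 1.04 and 0.93 log2 units in mice 1, 2 and 3. Between the periportal and pericentral zones, the ratio was 1.43-fold, 1.62-fold and 1.61-fold higher in zones 5 to 8 in mice 1, 2 and 3 (exact permutation test within mice, two-sided, p = 5.83e-06, the smallest that 343000 arrangements can give). Of the ratios of any pair among the 198 miRNAs detected on all arrays, 2.91% had no overlap between the periportal and pericentral zones, counting both directions. Of the ratios of miR-148a-3p to the other 197, 11.2% were higher in zones 5 to 8 without overlap and 0.508% lower. Of those of miR-152-3p, 10.7% were lower without overlap and 0.00% higher.

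Within a slide row the ratio could be followed without the change of row. Position along a row was not compared with zone order. In zones 5 to 8 its log2 slope was 0.058 per zone and was above 0 in each mouse, at 0.054, 0.068 and 0.052 in mice 1, 2 and 3 (exact permutation test within mice, two-sided, p = 0.000434). In zones 1 to 4 the slope was 0.013 per zone (exact p = 0.651), with 0.012, 0.063 and -0.037 in mice 1, 2 and 3. The largest step between neighbouring zones lay between zones 4 and 5, where the slide row also changes: the zone 5 mean was 20.5 ± 0.865, against 13.8 ± 1.46 in zone 4 (SD, n = 3 each). The 5 control sequences detected on all arrays had scaled periportal minus pericentral differences of -0.31 to 0.02 log2 units, and unscaled ones of -0.21 to 0.12. Ratios between controls thus also differed between these groups of zones, with no test made. The log2 ratio of miR-148a-3p to miR-152-3p differed by 0.63 on average over the mice. The part of slide position in the step between zones 4 and 5, or in the slopes within a row, was not tested apart from zone.

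As scaled here, miR-148b-3p lay between the other members in fitted change. Over the 23 arrays that detected it, the difference in fitted change was 0.39 log2 units between miR-148a-3p and miR-148b-3p (permutation p = 0.00183, and 0.00183 adjusted over the 3 pairs of members). Between miR-148b-3p and miR-152-3p it was 0.49 log2 units (permutation p = 1e-05, again the smallest possible, and 1.5e-05 adjusted over the 3 pairs). Both were above 0 in each mouse, at 0.29, 0.82 and 0.20 for the first pair in mice 1, 2 and 3 and 0.45, 0.21 and 0.73 for the second. These tests also moved labels across slide rows, and neither pair was tested within a row. Within zones 5 to 8 the slopes of miR-148a-3p were 0.034, 0.079 and 0.151 per zone in mice 1, 2 and 3. They were 0.036, 0.029 and 0.193 for miR-148b-3p and -0.021, 0.011 and 0.099 for miR-152-3p. There miR-148a-3p had a higher slope than miR-148b-3p in mouse 2 alone. The ratio of miR-148a-3p to miR-148b-3p ran from 72.7 to 94.3 in zones 5 to 8 and from 61.5 to 84.0 in zones 1 to 4. The ratio of miR-148b-3p to miR-152-3p ran from 0.230 to 0.298 and from 0.167 to 0.254 over the same zones. Both ratios overlapped between the groups of zones, unlike that of miR-148a-3p to miR-152-3p.

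The fitted changes depended on the scaling between arrays, so the members were also set against the median fitted change of all miRNAs. That median was -0.10 log2 units as scaled here, 0.10 in unscaled data, 0.04 after scaling to the summed signal and -0.07 after quantile normalization. miR-148a-3p had fitted changes of 0.68, 0.91, 0.85 and 0.38 log2 units under these 4, above the median each time. miR-152-3p had -0.22, 0.0091, -0.05 and -0.10 log2 units, below the median each time, with a direction that flips without scaling. miR-148b-3p had 0.48, 0.63, 0.65 and 0.48 log2 units. It lay between the other members except with quantile normalization, where it was above miR-148a-3p.

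**Figure D3:**
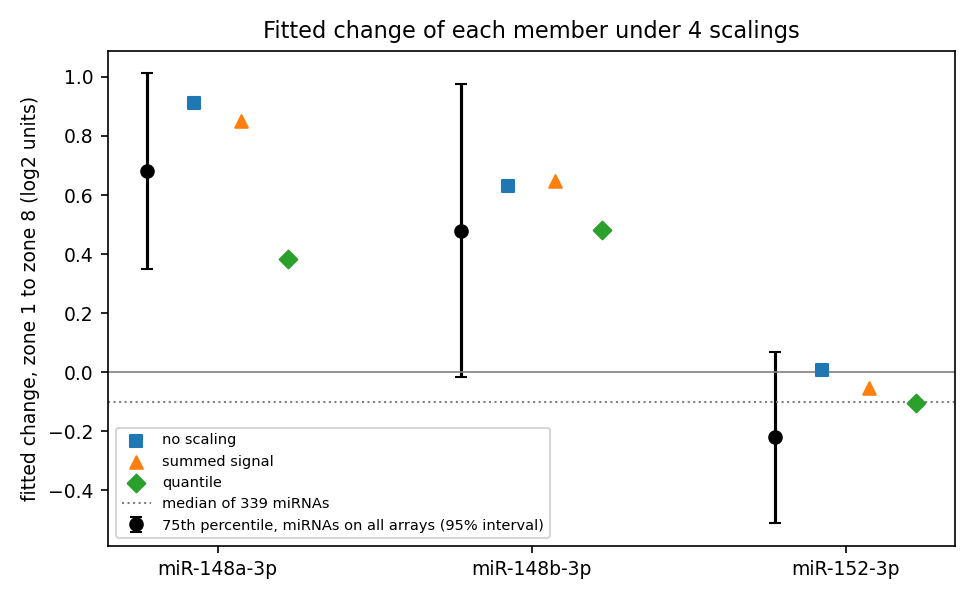
Fitted change from zone 1 to zone 8 (log2 units) of each member under 4 scalings between arrays, with the 95% interval of the first as bars; the dotted line is the median fitted change of the 339 miRNAs tested under the first scaling. miR-148a-3p lies above 0 under all 4, with 0.38 as its lowest value under quantile normalization, and miR-152-3p lies near 0, with 0.0091 without scaling and -0.22 under the first scaling.

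By mouse, miR-148a-3p averaged 300.4 ± 41.8, 281 ± 85.3 and 308 ± 44.1 scaled units in mice 1, 2 and 3 (SD over the 8 arrays of a mouse). miR-148b-3p averaged 4.01 ± 0.349, 3.47 ± 1.08 and 3.93 ± 0.602 units, and miR-152-3p 15.98 ± 1.77, 16.02 ± 2.40 and 18.02 ± 3.04 units. The means of the mice differed by less than the spread over zones of at least 1 mouse for all 3. No test was made, since each mouse is 1 animal on 1 slide.

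The miRNAs with profiles most like that of miR-148a-3p were miR-101a-3p, miR-26a-5p, let-7g-5p, miR-192-5p and miR-30a-3p. With each mouse's mean taken out, Pearson's r of log2 scaled signals over 24 arrays was 0.952, 0.948, 0.947, 0.942 and 0.929 for these 5. They were the highest among the 197 other miRNAs detected on all arrays, and the arrays share their scaling factors. Their fitted changes were 0.68, 0.62, 0.58, 0.38 and 0.94 log2 units, of which that of miR-192-5p did not pass (limma adjusted p = 0.116). miR-152-3p, with the same seed as miR-148a-3p, ranked 57 with r = 0.242. Over the 23 arrays that detected miR-148b-3p, r was 0.654 between it and miR-148a-3p and 0.450 between it and miR-152-3p.

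Among miRNAs known to act on cholesterol and lipoproteins, miR-148a-3p was 1 of 4 that rose. Of the 16 listed, all on the array, 7 were tested, 4 rose, 1 fell and 2 did not pass, against 10.3% higher and 6.49% lower among all 339 tested. With the mouse block 5 rose and 1 fell, against 14.5% and 16.5% among all 339. The median fitted change of the 7 tested was 0.67 log2 units, against -0.10 over all 339. The list includes miR-148a-3p itself and was chosen with earlier results of these data known, so its counts are no independent support. miR-122-5p, a liver-specific miRNA that sustains cholesterol synthesis, rose by 0.72 ± 0.13 log2 units (SE; limma adjusted p = 0.000159). miR-33-5p, which lies in a Srebf2 intron and represses Abca1, was detected on 8 of 12 periportal and 4 of 12 pericentral arrays. Its fitted change of 0.67 ± 0.33 did not pass (adjusted p = 0.171) and passed with the mouse block (adjusted p = 0.0186), and its partner arm miR-33-3p was detected on 0 of 24 arrays. Chosen after their values were seen, the others were miR-30c-5p and miR-802-5p, which rose, miR-185-5p, which fell by 0.64 log2 units, and miR-27b-3p, which had -0.17 and did not pass. miR-802-5p was detected on 12 of 12 periportal and 0 of 12 pericentral arrays, so the size of its fitted change rests on the floor. It passed the filter of 6 arrays through the periportal arrays alone, so its place among the 4 that rose is no independent result.

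Of 13 miRNAs known to target DNA methyltransferases, the 3 family members included, 10 were tested, 3 rose, 1 fell and 6 did not pass. With the mouse block 4 rose and 1 fell. Among all 339 miRNAs 10.3% were higher and 6.49% lower, and 14.5% and 16.5% with the block. The median fitted change of the list was 0.35 log2 units, against -0.10 over all. This list too was chosen with earlier results of these data known. Those that rose were miR-148a-3p and, chosen after their values were seen, miR-101a-3p and miR-30a-5p, and miR-185-5p was the one that fell. miR-29a-3p, miR-29b-3p and miR-29c-3p had fitted changes of 0.38 ± 0.14, 0.23 ± 0.18 and 0.16 ± 0.13 log2 units (SE), none past the test. miR-29a-3p passed with the mouse block (limma adjusted p = 0.0273). Of 12 hepatocyte-abundant miRNAs, all tested and miR-148a-3p included, 6 rose, 0 fell and 6 did not pass, against 10.3% higher and 6.49% lower among all 339. With the mouse block 6 rose and 0 fell, against 14.5% and 16.5%. The median of these 12 was 0.50 log2 units, against -0.10 over all. All 12 were detected on all 24 arrays. When the 198 miRNAs detected on all arrays were tested alone, 24 were called higher and 29 lower, with a median fitted change of -0.19. These 12 were likewise chosen with earlier results of these data known. miR-192-5p and miR-194-5p, which share clustered precursors, had fitted changes of 0.38 ± 0.16 and 0.31 ± 0.14 log2 units (adjusted p of 0.116 and 0.120), beside 0.68 ± 0.16 for miR-148a-3p.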

How the data were processed

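Per the labels' protocols, total RNA of 24 sorted populations was labelled with Cy3 for 1-colour Agilent miRNA arrays. The deposited intensity values are linear total signals per miRNA, and the submitters' processing notes name Agilent Feature Extraction; scaling between arrays is not given in the sources used here. Per the file headers the other deposited columns are an error and a detection call; undetected miRNAs carry a signal of 0.1. Groups and mouse numbers came from the labels, and slides and slide rows from numbers in the array names. Leaving out 21 control rows, each array was scaled to a common 75th percentile, read from the 198 miRNAs with a detection call on every array; values under 1.12 were raised to this floor before log2. Of all miRNAs, 339 had a detection call on at least 6 arrays and were fitted with limma 3.58.1 (R 4.3.3) without a block, with Benjamini-Hochberg adjustment over all of them and a threshold of 0.05; mouse as a block, other scalings, floors and filters, slide row and left-out arrays were alternatives. The mouse numbers pair arrays of 1 animal (median correlation of deviations from zone means 0.610 within mice, lowest 0.254). A fitted change is the slope over zone numbers times the 7 steps of the axis. Ratio slopes were tested by permuting zone labels within mice. Fits were tested on simulated data. The members and lists were chosen with earlier results of these data known; named miRNAs were the members, their other arms, at most 4 a list in list order and the 5 most like miR-148a-3p; exceptions are marked.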

Additional observations from a re-analysis of the deposited data

How the results depend on the processing

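Here the zone difference is periportal minus pericentral zones. The zone difference and slope of miR-148a-3p kept their direction under all alternatives run, and lost the call with quantile normalization (0.22 and 0.055 log2 units, the slope per zone) and, for the slope, with slide row as a term beside the mouse block (0.0474). Without each mouse the slope was 0.0752 to 0.114 and the zone difference 0.35 to 0.55. The slope difference between miR-148a-3p and miR-152-3p was 0.119 to 0.140 without each mouse and 0.126 to 0.135 without each array (permutation p of 8e-05 or less), and 0.0127 within zones 1 to 4. Quantile normalization narrowed it, with slopes of 0.055 for miR-148a-3p and -0.0147 for miR-152-3p. As scaled here these slopes were 0.0973 and -0.0315. For miR-152-3p the slope turned to 0.0013 without scaling and 0.0121 with the row term, its difference between zones 8 and 1 to 0.0214 with quantile normalization, 0.27 without scaling and 0.11 with the summed signal, and its slope within zones 1 to 4 to 0.0300 without scaling and 0.0643 with the summed signal. Without each mouse its zone difference was -0.25 to -0.057, its slope -0.0438 to -0.0152, its difference between zones 8 and 1 -0.26 to 0.074, and its slopes within zones 1 to 4 and 5 to 8 -0.0325 to 0.0622 and -0.0049 to 0.0220. Without each array its zone difference was -0.23 to -0.15 and its slope -0.0502 to -0.0259. Of all miRNAs tested, 35 rose and 22 fell in slope and 39 were higher and 26 lower between these zones; the falling and lower counts were 56 and 57 with mouse as a replicate block, 3 and 8 in unscaled data, and 6 and 13 after scaling to the summed signal. The higher count between these zones was 25 among the 198 miRNAs detected on all arrays. With slide row and the mouse block limma called 0 higher and 0 lower, against 19 and 18 at an unadjusted p under 0.05. Without each mouse 22 to 33 rose and 6 to 13 fell in slope, and 31 to 36 were higher and 12 to 20 lower between these zones. The mouse block changed 1 call of a member, the difference of miR-148a-3p between zones 8 and 1. Leaving out single arrays, the pairs with miR-148b-3p, the zone difference of the ratio and its values within slide rows were chosen after seeing the data; the causes of these changes were not tested. Signals near the floor limit miR-148b-3p.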
